A study of Mus musculus with 8 samples.

Results

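Mitotic and DNA replication genes were chosen by symbol from a list of S-phase, mitosis and cyclin genes, and all 59 of them were found among the 23337 gene symbols of the count files. They were read in 3 classes: 18 genes of DNA replication, 6 cyclin and E2F genes of the passage from G1 to S phase, and 35 genes of mitosis. RNA was sequenced from the liver of 12-week-old C57BL/6 mice, either WT or HRD1Alb (labelled Hrd1-/-, KO), in which Cre driven by the albumin promoter deletes the floxed Hrd1 gene in hepatocytes from early liver development on. The mice had either fasted overnight or been given food again for 4 h after the fast, which makes 4 groups of 2 samples, 8 altogether. The labels do not say whether the 2 samples of a group came from different animals, so p-values measure the spread between these samples only. The question the design puts to these genes is whether deletion of HRD1, a ubiquitin ligase of the endoplasmic reticulum, and refeeding alter the transcripts of S phase and of mitosis alike.

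In a dividing cell, origins are licensed in G1 when CDC6 and CDT1 load the MCM helicase, and cyclin D and cyclin E with their kinases release the E2F factors that switch on replication genes. Mitosis is driven by CDK1 with the A and B cyclins, by the Polo and Aurora kinases, and ends when the anaphase-promoting complex with CDC20 and UBE2C marks cyclins and securin for destruction. Most hepatocytes of the adult liver rest outside the cycle and can re-enter it after loss of tissue, and many of them are polyploid. Promoters of late cell cycle genes often carry a CHR element and CCAAT boxes, which bind the MuvB complexes and NF-Y, whereas E2F sites are known from genes of the G1 to S passage.

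The stretch of 200 bases before the transcription start that RefSeq annotates is shown for 7 members, to put the regulatory letters of genes that rose in HRD1Alb liver beside those of replication genes that passed no test or passed it only on the mean of both feeding states. Sequences are from RefSeq on GRCm38.p6, written 5′ to 3′ on the strand of the gene. Capitals mark a CHR (TTTGAA, with TTCGAA as its other form), a CCAAT box spelled by its name, or an E2F core (the form TTTGGCG and its variants TTTCCCG, then TTTCGCG, and last TTTGCCG) on either strand, so that a box may read as its reverse complement. The mitotic genes Ube2c (chr2:164769729-164769928, + strand), Top2a (chr11:99024190-99024389, - strand), Ccnb2 (chr9:70421555-70421754, - strand) and Prc1 (chr7:80294251-80294450, + strand) come first, then the cyclin gene Ccne1 (chr7:38107491-38107690, - strand) and the replication genes Mcm2 (chr6:88898781-88898980, - strand) and Pcna (chr2:132253181-132253380, - strand).
Ube2c: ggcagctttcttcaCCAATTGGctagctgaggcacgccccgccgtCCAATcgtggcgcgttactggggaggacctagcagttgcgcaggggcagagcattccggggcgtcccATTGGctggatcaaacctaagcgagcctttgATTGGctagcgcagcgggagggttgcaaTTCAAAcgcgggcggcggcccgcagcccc
Top2a: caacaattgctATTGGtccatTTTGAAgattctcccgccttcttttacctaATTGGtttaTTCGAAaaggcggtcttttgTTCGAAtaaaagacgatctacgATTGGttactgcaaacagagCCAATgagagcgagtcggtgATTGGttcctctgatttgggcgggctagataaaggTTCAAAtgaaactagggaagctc
Ccnb2: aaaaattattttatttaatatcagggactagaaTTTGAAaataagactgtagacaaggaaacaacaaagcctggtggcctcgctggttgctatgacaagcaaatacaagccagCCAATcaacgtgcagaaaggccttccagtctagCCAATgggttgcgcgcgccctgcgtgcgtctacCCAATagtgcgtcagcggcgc
Prc1: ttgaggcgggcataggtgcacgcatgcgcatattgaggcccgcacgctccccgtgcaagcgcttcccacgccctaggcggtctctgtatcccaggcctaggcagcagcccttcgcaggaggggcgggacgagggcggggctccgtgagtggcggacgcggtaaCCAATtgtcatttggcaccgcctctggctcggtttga
Ccne1: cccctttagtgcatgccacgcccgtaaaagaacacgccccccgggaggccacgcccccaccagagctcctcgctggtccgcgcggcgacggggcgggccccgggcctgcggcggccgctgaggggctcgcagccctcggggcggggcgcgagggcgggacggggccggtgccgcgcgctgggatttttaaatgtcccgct
Mcm2: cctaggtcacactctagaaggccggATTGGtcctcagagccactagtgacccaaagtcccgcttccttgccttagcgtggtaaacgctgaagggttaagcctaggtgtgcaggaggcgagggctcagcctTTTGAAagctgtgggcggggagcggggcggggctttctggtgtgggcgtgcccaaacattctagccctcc
Pcna: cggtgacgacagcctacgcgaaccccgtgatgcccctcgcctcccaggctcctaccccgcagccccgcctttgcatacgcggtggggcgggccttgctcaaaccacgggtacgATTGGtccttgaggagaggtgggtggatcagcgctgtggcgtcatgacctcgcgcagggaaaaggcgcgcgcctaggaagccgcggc

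Top2a held 4 CHR and 5 CCAAT matches in these 200 bases, Ube2c held 1 and 5 and Ccnb2 1 and 3. The Ube2c stretch CCAATTGG was counted once on each strand, though these matches overlap. Prc1 held 1 CCAAT box and no CHR, Pcna likewise, Mcm2 1 of each, and Ccne1 none of the 3 motifs. Promoter windows were found for 47 of the 59 members, 53 windows in all, and the first 30 transcribed bases stood in a transcript of the same gene in the annotation for 40 of them, not for that of Ccnb2. The 250 bases before each start were searched. A CHR stood in 11 of 31 mitosis windows (35.5%) and in 3 of 19 replication windows (15.8%), against 17.1% of all 32851 windows in the table. A CCAAT box stood in 77.4% of mitosis windows and 73.7% of replication windows, against 33.8% of all windows. An E2F core stood in 12.9% of mitosis windows and 31.6% of replication windows, against 5.5% of all. These are letter matches, given without a test, and the 6 G1 to S genes had only 3 windows.

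Total counts per library lay between 40210576 and 49117080, and 3 counts, taken as the floor of detection, correspond to between 0.0611 and 0.0746 CPM (counts scaled to a common library size, here before the TMM factors are applied). All other CPM values are after TMM scaling. Syvn1, the gene of HRD1, was at 111 and 99.8 CPM in the fasted WT libraries and at 32.6 and 31.5 CPM in the fasted HRD1Alb libraries, but after refeeding at 637 and 305 CPM in WT and at 453 and 132 CPM in HRD1Alb, so that the refed groups overlapped. The counts cover the whole gene, not the deleted part, and cannot check the deletion in the refed libraries, which are therefore called by their labels. Cyp2b13, a cytochrome P450 gene, was at 0 to 0.0263 CPM in every WT library, at 16.5 and 20.2 CPM in fasted and at 6.87 and 12.5 CPM in refed HRD1Alb. The library labelled refed HRD1Alb replicate 2 stood apart: the ratio of its counts to those of its partner decreased with the length of the transcript (rho = -0.593 over 14178 genes, by Spearman's method, against -0.115 to 0.0337 in the other groups), and 3204 genes differed at least 2-fold between the pair. Counts of calls are given with and without it.

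**Figure D1:**
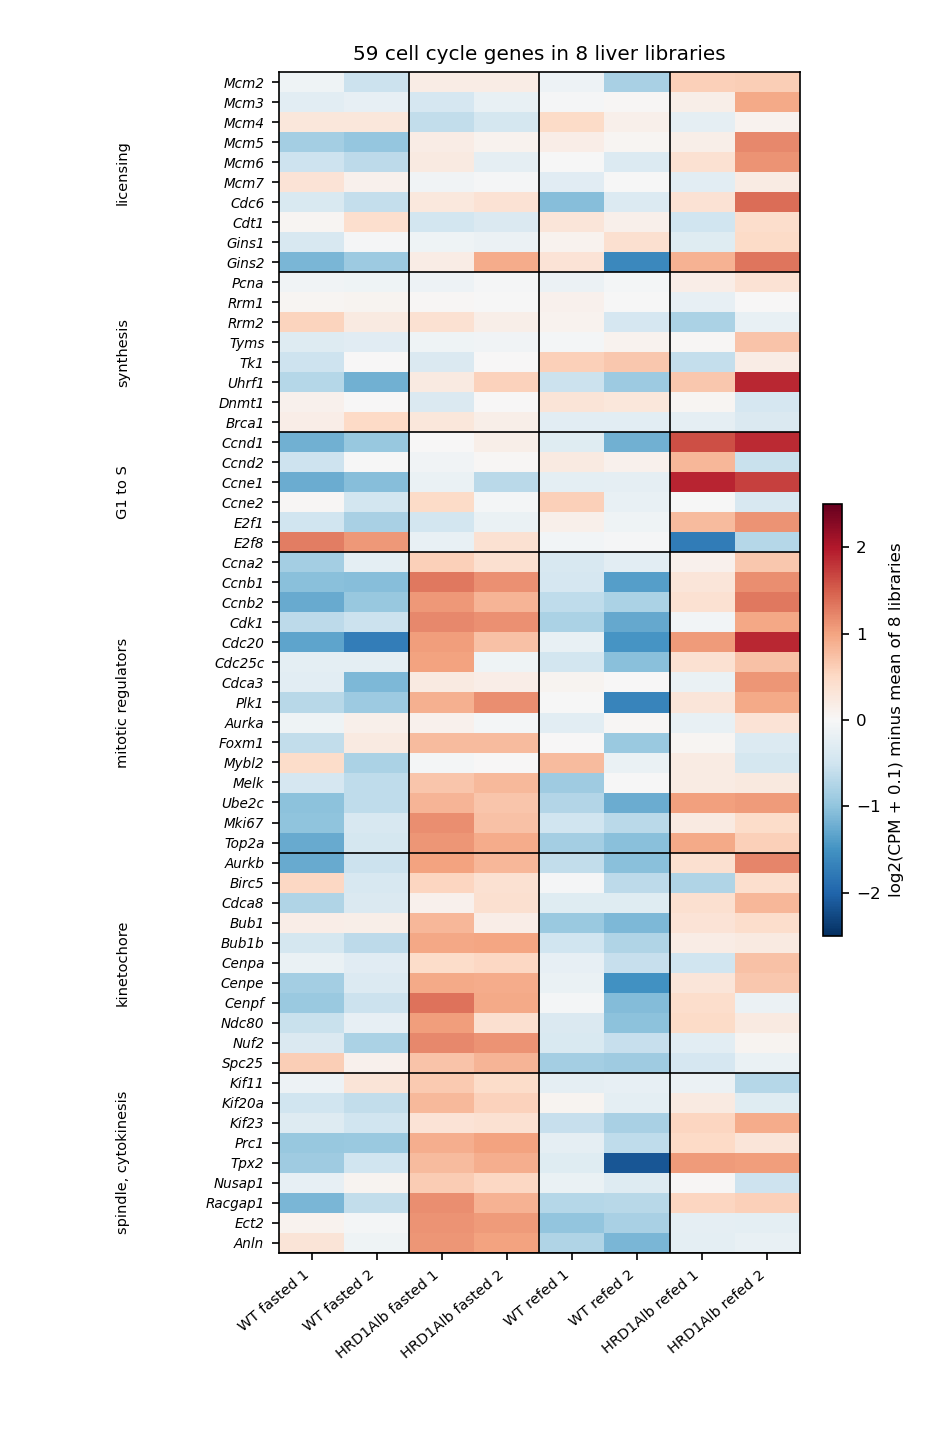
Each row is a member and each column a library, and the colour gives log2(CPM + 0.1) minus the mean of the gene over the 8 libraries, on a scale cut at 2.5 in either direction. The 35 mitosis genes in the lower part are mostly red in the HRD1Alb columns and blue in the WT columns, whereas the 18 replication genes at the top show no such common pattern.

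Fold changes come from 1 edgeR quasi-likelihood fit of the 8 libraries, as log2 fold change ± SE, with p-values adjusted by Benjamini-Hochberg over the 14328 genes tested. A member was called at an adjusted p under 0.05. All 59 members passed the filter on low counts, but only 51 would have passed it on the WT libraries alone. The other 8 (Cdc6, Gins2, Uhrf1, Ccnb1, Cdc25c, Melk, Ndc80 and Nuf2) passed through the HRD1Alb libraries, where they were higher, so that their direction was in part fixed by the filter. Levels per transcript length, as mean CPM per kilobase over the 8 libraries, had a median of 1.51 for the replication genes, 1.02 for the G1 to S genes and 0.299 for the mitosis genes, and 17 of the 35 mitosis genes had a mean under 1 CPM. In whole liver RNA, more cells of a kind and more RNA per cell cannot be told apart.

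In fasted liver, the mitosis genes were higher in HRD1Alb than in WT as a class, and the replication genes were not. The log2 fold change was above 0 for all 35 mitosis genes, with a median of 1.68, which is a fold of 3.21, and for 10 of the 18 replication genes, with a median of 0.04, where all genes tested had a median of -0.02. Over the 30 mitosis genes and 15 replication genes that pass the count filter on the WT libraries alone, the medians were 1.21, a fold of 2.31, and -0.05. The summed CPM of the mitosis genes was 38.3 and 36.2 in WT and 80.6 and 75.6 in HRD1Alb. That of the replication genes was 90.2 and 90.8 in WT and 85.3 and 90.3 in HRD1Alb. The mitosis sums of the genotypes thus did not overlap and the replication sums did.

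Single genes passed the test less readily than the class sums stood apart. Of the 59 members 2 were called higher, where 0.921% of all genes tested were, and 0 lower, where 0.433% were. At an unadjusted p under 0.05, 24 mitosis, 2 G1 to S and 3 replication genes were higher and 0, 1 and 1 lower. By DESeq2, 16 mitosis, 1 G1 to S and 0 replication genes were called higher and 1 replication gene lower, and by limma-trend 7 mitosis genes were called higher and no member lower. Shares of all genes are not given here for the unadjusted p, DESeq2 and limma-trend, so these counts are not read alone. At a 2-fold difference and an unadjusted p under 0.05, 25 members were higher, 21 of them in mitosis, where 6.84% of all genes were, and 1 lower, where 1.51% were. The edgeR count of 2 became 22 when either library labelled refed HRD1Alb was left out and 0 when any one of the other 6 was. With refed HRD1Alb replicate 2 left out, 19 of 35 mitosis genes and 2 of 18 replication genes were called higher in fasted liver, where 9.66% of all genes tested were.

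Both calls were genes of cytokinesis. Prc1 (chr7:80294450-80316259), which bundles the antiparallel microtubules of the central spindle, was at 0.549 and 0.560 CPM in fasted WT and at 2.23 and 2.42 CPM in fasted HRD1Alb. It rose by 2.06 ± 0.30 on the log2 scale (adjusted p = 0.035, edgeR). Racgap1 (chr15:99620496-99651656), a subunit of centralspindlin, was at 0.324 and 0.511 CPM in WT and at 1.98 and 1.60 CPM in HRD1Alb, a rise of 2.09 ± 0.35 (adjusted p = 0.044). For both genes the lowest HRD1Alb library was more than 2 times the highest WT library.

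After refeeding, the libraries labelled HRD1Alb were again above WT in most mitosis genes, and the cyclin genes Ccnd1 and Ccne1 had the smallest p-values of all members. Higher calls numbered 12 of the 59 members, where 7.09% of all genes tested were, and 0 lower, where 4.84% were and where 2 members were at an unadjusted p under 0.05 and 1 was by DESeq2. The calls comprised 9 of 35 mitosis genes, 2 of 6 G1 to S genes and 1 of 18 replication genes. The median log2 fold change was 0.97 for the mitosis genes, 33 of them above 0, and 0.25 for the replication genes, 10 of them above 0, where all genes had a median of 0.04. Over the 30 mitosis and 15 replication genes that pass the count filter on the WT libraries alone, the medians were 0.92 and -0.03. Of these, 9 mitosis and 0 replication genes were called higher, and Uhrf1 is not among them. Over all members of each class, the replication median was 0.01 without refed HRD1Alb replicate 2 and the mitosis median 0.99. At a 2-fold difference and an unadjusted p under 0.05, 20 members were higher, 15 of them in mitosis, where 11.4% of all genes were, and 1 lower, where 4.83% were. Without refed HRD1Alb replicate 2, 10 members were called higher, 7 of them in mitosis, where 11.9% of all genes were. Without replicate 1 there were 28, 17 of them in mitosis, where 25.0% of all genes were. The count fell to 3 without either fasted HRD1Alb library, to 4 without either fasted WT library, and to 0 without either refed WT library. Of the 12 refed calls, 9 were kept without refed HRD1Alb replicate 2 and 3 were lost, Uhrf1, Bub1 and Aurkb. Cdk1 went from 1.65 to 1.02 and Ccnb2 from 1.79 to 1.21 on the log2 scale.

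**Figure D2:**
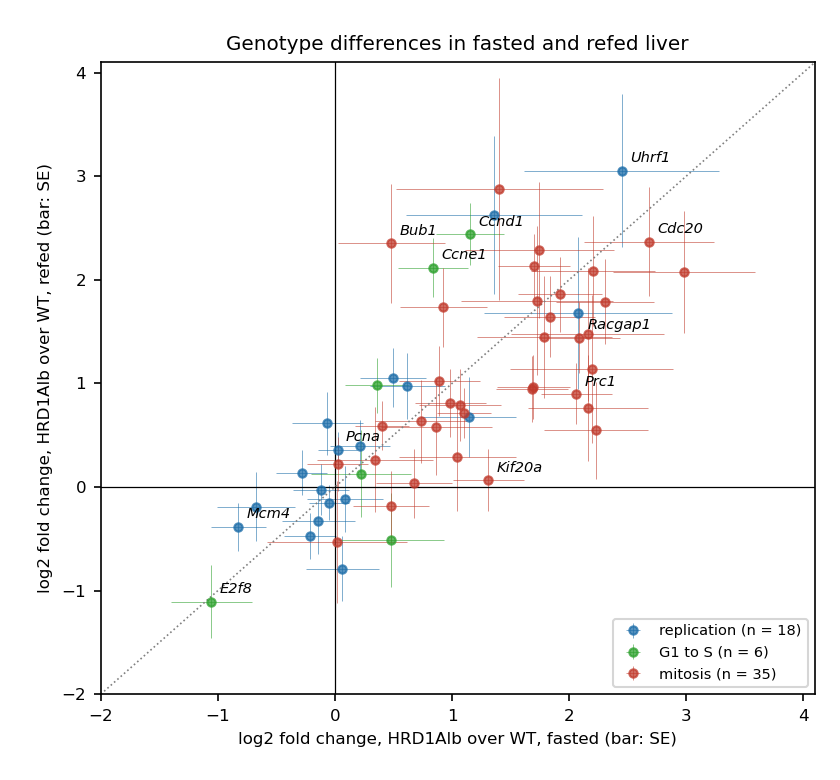
Each point is a member, with its log2 fold change of HRD1Alb over WT in fasted liver on the x axis and in refed liver on the y axis, and bars giving the SE of each. The mitosis genes (red) lie to the right of 0 and mostly above 0, the replication genes (blue) gather near 0 except for a few, and Ccnd1 and Ccne1 (green) lie above the dotted line of equal change.

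Among the licensing genes, the members of the MCM helicase did not move together. Mcm2 was at 4.74 and 3.5 CPM in fasted WT, 5.83 and 5.79 in fasted HRD1Alb, 4.67 and 2.86 in refed WT and 7.79 and 7.89 in refed HRD1Alb, so that all 4 HRD1Alb libraries were above all 4 WT libraries. On the mean of both feeding states it rose by 0.78 ± 0.20 (adjusted p = 0.035). Mcm4 was at 5.06 and 5.11 CPM in fasted WT, 2.68 and 3.05 in fasted HRD1Alb, 5.8 and 4.57 in refed WT and 3.54 and 4.43 in refed HRD1Alb, and fell by 0.60 ± 0.16 (adjusted p = 0.042). These 2 subunits of 1 helicase thus differed in direction, with no overlap of the genotypes in either feeding state. For Mcm4 the refed difference alone did not pass (-0.38 ± 0.23, adjusted p = 0.28, edgeR). Of all genes 17.5% lay below WT in both states, and with the replicate block 0 replication genes were called lower. Mcm6 rose by 0.80 ± 0.22 (adjusted p = 0.046). Mcm5 was at 0.748 and 0.681 CPM in fasted WT and 1.64 and 1.53 in fasted HRD1Alb but at 1.63 and 1.5 in refed WT and 1.59 and 3.44 in refed HRD1Alb, where the groups overlapped (mean difference 0.91 ± 0.28, adjusted p = 0.060). Mcm7, the licensing gene with the highest level per length at 4.12 CPM per kilobase, was at 15.3 and 13.0 CPM in fasted WT, 11.4 and 11.8 in fasted HRD1Alb, 9.93 and 12.0 in refed WT and 10.1 and 14.0 in refed HRD1Alb (mean difference -0.07 ± 0.15, adjusted p = 0.75).

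The licensing factors outside the helicase differed in level, with Cdc6 at 0.0429 and Cdt1 at 1.88 CPM per kilobase. Cdc6, which loads the helicase with CDT1, gave 7 counts in the fasted WT libraries together and 24 in the fasted HRD1Alb libraries, and 5 and 41 after refeeding. The ratio of HRD1Alb to WT was 2.62 (95% interval 1.10 to 7.20) in fasted and 6.15 (2.43 to 20.0) in refed liver, exact intervals that cover counting error only. It was called on the mean of both states (adjusted p = 0.041), but passed the count filter only through the HRD1Alb libraries. Cdt1 itself was at 4.14 and 5.35 CPM in fasted WT and 2.87 and 3.07 in fasted HRD1Alb, with overlap after refeeding (4.96 and 4.36 against 2.78 and 5.41 CPM), and passed no test. On the mean of both states, 3 licensing genes rose, Cdc6 among them, and 1 fell, where 11.3% and 7.78% of all genes did.

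Of the 8 genes of DNA synthesis and nucleotide supply, 1 was called, Uhrf1, which passed the count filter only through the HRD1Alb libraries. It was called in refed liver and on the mean of both states, where 7.09% and 11.3% of all genes rose. Pcna, the sliding clamp of the replication fork and the synthesis gene with the highest level per length (7.47 CPM per kilobase), was at 10.5 and 10.5 CPM in fasted WT, 10.2 and 11.1 in fasted HRD1Alb, 10.2 and 10.9 in refed WT and 12.6 and 14.5 in refed HRD1Alb. Its difference was 0.02 ± 0.17 in fasted and 0.36 ± 0.17 in refed liver (adjusted p = 0.96 and 0.18). The fasted groups overlapped and the refed groups did not. Rrm1, the large subunit of ribonucleotide reductase, lay between 9.14 and 11.4 CPM in all 8 libraries. Rrm2, its small subunit, was at 4.49 and 3.55 CPM in fasted WT, 3.97 and 3.32 in fasted HRD1Alb, 3.19 and 2.23 in refed WT and 1.69 and 2.63 in refed HRD1Alb, with overlap in both states. Neither subunit passed a test. Tk1, which salvages thymidine, was at 6.96 and 10.1 CPM in fasted WT, 7.70 and 10.1 in fasted HRD1Alb, 15.04 and 15.96 in refed WT and 6.60 and 11.4 in refed HRD1Alb. The refed groups did not overlap, with HRD1Alb lower (log2 fold change -0.79 ± 0.31), which passed at an unadjusted p under 0.05 and not after adjustment (adjusted p = 0.13, edgeR).

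Tyms, which makes thymidylate, was at 4.89 and 5.04 CPM in fasted WT, 5.71 and 5.79 in fasted HRD1Alb, 5.95 and 6.54 in refed WT and 6.30 and 10.1 in refed HRD1Alb. Dnmt1, the maintenance DNA methyltransferase, was at 11.6 and 10.8 CPM in fasted WT, 8.41 and 10.9 in fasted HRD1Alb, 13.5 and 13.1 in refed WT and 11.1 and 8.0 in refed HRD1Alb. Tyms was higher in both fasted HRD1Alb libraries and Dnmt1 lower in both refed HRD1Alb libraries than in WT, and neither passed a test (adjusted p = 0.26 and 0.16 on the mean of both states). Uhrf1 is the partner that brings DNMT1 to newly copied DNA. It gave 4 counts in fasted WT and 30 in fasted HRD1Alb, and 6 and 65 after refeeding, ratios of 5.73 (2.02 to 22.4) and 8.13 (3.54 to 23.0). It was called in refed liver (log2 fold change 3.05 ± 0.74, adjusted p = 0.042) and not without refed HRD1Alb replicate 2 (2.18), and the WT libraries were near the floor and the size of the fold is poorly fixed.

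**Figure D3:**
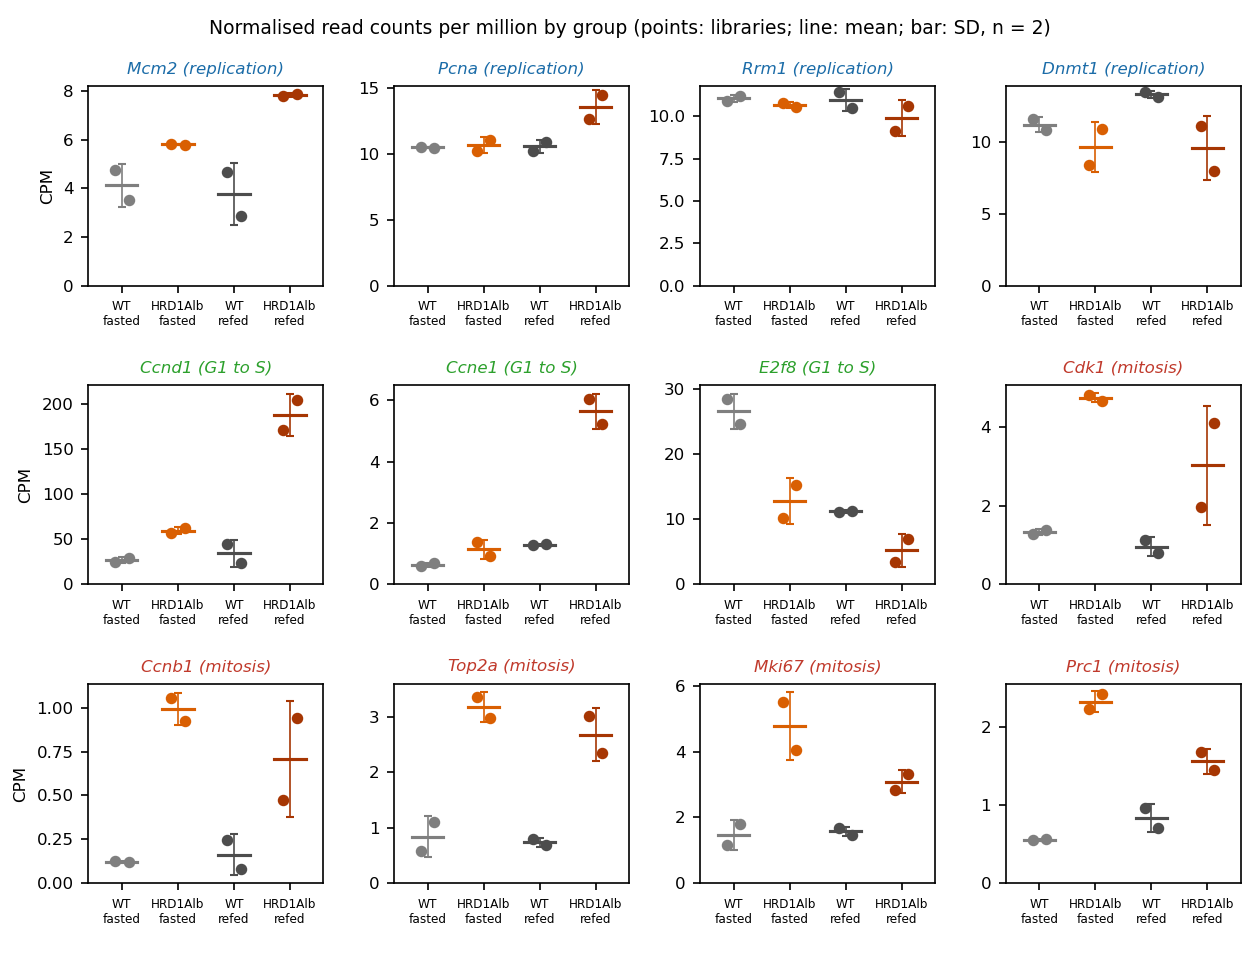
CPM of 12 members in the 4 groups, with points for the 2 libraries of a group, a line at their mean and a bar of 1 SD, each on its own axis from 0. The replication genes Pcna and Rrm1 differ little between the genotypes, Dnmt1 is lower in refed HRD1Alb than in refed WT, Ccnd1 and Ccne1 are highest in refed HRD1Alb, and Cdk1, Ccnb1, Top2a, Mki67 and Prc1 are higher in HRD1Alb in both feeding states.

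The G1 to S genes held the members with the smallest p-values after refeeding. Ccnd1 (chr7:144929931-144939925), which encodes cyclin D1, had the highest level per length of this group, at 20.6 CPM per kilobase. It was at 24.4 and 29.0 CPM in fasted WT, 56.6 and 62.0 in fasted HRD1Alb, 45.1 and 24.1 in refed WT and 172 and 205 in refed HRD1Alb. All 4 HRD1Alb libraries were above all 4 WT libraries, and the refed HRD1Alb libraries were more than 2 times any other. It rose by 2.44 ± 0.30 in refed liver (adjusted p = 0.0099), and the difference of 1.15 ± 0.29 in fasted liver did not pass (adjusted p = 0.10). Ccne1 (chr7:38097984-38107534), cyclin E1, was at 0.599 and 0.681 CPM in fasted WT, 1.37 and 0.926 in fasted HRD1Alb, 1.28 and 1.31 in refed WT and 6.04 and 5.24 in refed HRD1Alb, a rise of 2.12 ± 0.28 after refeeding (adjusted p = 0.011).

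Its relative Ccne2 was at 0.723 and 0.487 CPM in fasted WT, 1.02 and 0.672 in fasted HRD1Alb, 1.11 and 0.604 in refed WT and 0.694 and 0.504 in refed HRD1Alb, with overlap in both states. Ccnd2 overlapped likewise and passed no test. The E2F factors of the list moved apart. E2f1, an activator of S-phase genes, was at 1.65 and 1.31 CPM in fasted WT, 1.70 and 2.09 in fasted HRD1Alb, 2.62 and 2.18 in refed WT and 4.20 and 5.28 in refed HRD1Alb, and rose by 0.67 ± 0.19 on the mean of both states (adjusted p = 0.049). E2f8 (chr7:48866429-48881596), a repressor of the family linked to hepatocyte polyploidy, was at 28.4 and 24.6 CPM in fasted WT, 10.2 and 15.2 in fasted HRD1Alb, 11.0 and 11.3 in refed WT and 3.39 and 7.01 in refed HRD1Alb. It fell by 1.08 ± 0.25 (adjusted p = 0.025), without overlap in either state.

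On the mean of both feeding states, which sets all 4 HRD1Alb against all 4 WT libraries within feeding state, 30 members were called higher, where 11.3% of all genes tested were, and 2 lower, Mcm4 and E2f8, where 7.78% were. Of the 35 mitosis genes 23 rose and 0 fell, of the 6 G1 to S genes 3 rose and 1 fell, and of the 18 replication genes 4 rose and 1 fell. At an unadjusted p under 0.05 no mitosis gene was lower, and DESeq2 and limma-trend called none lower either. Of the 30 mitosis genes that pass the count filter on the WT libraries alone, 20 rose, and of the 15 such replication genes 2 rose. The HRD1Alb libraries were above the WT libraries in both feeding states for 32 of the 59 members, 24 of them in mitosis, where 18.3% of all genes were, and below in both for 2, where 17.5% were. The 8 members that passed the count filter only through the HRD1Alb libraries are all among the 32, and their direction was in part fixed. Of these, Ccnb1, Cdc25c, Melk, Ndc80 and Nuf2 are among the 24. The count of 30 was 9 and 12 without a fasted HRD1Alb library, 14 and 14 without a fasted WT library, and 17 and 10 without a refed WT library. Without refed HRD1Alb replicate 2 it was 33, with 4 lower. Of these, 24 higher calls were mitosis genes, and 6 replication genes were higher and 3 lower, where 18.2% of all genes were higher. Without replicate 1 it was 39, with 3 lower, where 24.8% of all genes were higher.

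The 15 regulators of mitotic entry and exit gave 9 of the 23 calls on the mean of both states, where 11.3% of all genes rose. Cdk1 (chr10:69335146-69352938), the kinase of mitotic entry, was at 1.27 and 1.39 CPM in fasted WT, 4.83 and 4.67 in fasted HRD1Alb, 1.14 and 0.788 in refed WT and 1.96 and 4.1 in refed HRD1Alb. It rose by 1.65 ± 0.39 in refed liver (adjusted p = 0.041) and by 1.74 ± 0.28 on the mean of both states (adjusted p = 0.0086). The genotypes did not overlap, and the refed HRD1Alb libraries differed about 2-fold from each other.

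The cyclins that CDK1 binds were called with it on the mean of both states. Ccnb1 passed the count filter only through the HRD1Alb libraries, so its direction was in part fixed. Its refed WT libraries held 10 and 3 counts. Ccnb1 was at 0.125 and 0.122 CPM in fasted WT, 1.06 and 0.926 in fasted HRD1Alb, 0.247 and 0.0788 in refed WT and 0.474 and 0.943 in refed HRD1Alb (mean of both states 2.53 ± 0.42, adjusted p = 0.010). Ccnb2 was at 0.349 and 0.462 CPM in fasted WT, 2.19 and 1.85 in fasted HRD1Alb, 0.593 and 0.525 in refed WT and 1.30 and 2.59 in refed HRD1Alb (2.05 ± 0.29, adjusted p = 0.0065). Ccna2, cyclin A2, was at 0.823 and 1.31 CPM in fasted WT, 2.41 and 2.09 in fasted HRD1Alb, 1.16 and 1.29 in refed WT and 1.69 and 2.56 in refed HRD1Alb (0.93 ± 0.24, adjusted p = 0.038). For each of these 3 cyclins, all 4 HRD1Alb libraries were above all 4 WT libraries.

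The same role group holds Ube2c and Cdc20. Ube2c, the ubiquitin-conjugating enzyme of the anaphase-promoting complex, whose promoter held 5 CCAAT matches, overlapping ones included, was at 0.723 and 0.973 CPM in fasted WT, 2.91 and 2.62 in fasted HRD1Alb, 0.914 and 0.604 in refed WT and 3.28 and 3.42 in refed HRD1Alb. All 4 HRD1Alb libraries were above all 4 WT libraries, and it had the smallest p of all members on the mean of both states (1.92 ± 0.22, adjusted p = 0.0034). Cdc20, an activator of the same complex, was at 0.424 and 0.292 CPM in fasted WT, 2.58 and 2.05 in fasted HRD1Alb, 1.04 and 0.368 in refed WT and 2.61 and 4.71 in refed HRD1Alb (2.53 ± 0.38, adjusted p = 0.0074).

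Top2a (chr11:98992943-99024189), the topoisomerase that untangles sister chromatids, was at 0.574 and 1.09 CPM in fasted WT, 3.36 and 2.98 in fasted HRD1Alb, 0.790 and 0.683 in refed WT and 3.01 and 2.35 in refed HRD1Alb, a rise of 1.89 ± 0.26 (adjusted p = 0.0056). Mki67, the proliferation marker Ki-67 that coats mitotic chromosomes, was at 1.15 and 1.80 CPM in fasted WT, 5.51 and 4.05 in fasted HRD1Alb, 1.68 and 1.47 in refed WT and 2.84 and 3.33 in refed HRD1Alb, a rise of 1.33 ± 0.22 (adjusted p = 0.0095). Neither gene overlapped between the genotypes. The transcription factor Foxm1, which drives genes of G2 and mitosis, was at 0.349 and 0.706 CPM in fasted WT, 1.10 and 1.09 in fasted HRD1Alb, 0.593 and 0.263 in refed WT and 0.609 and 0.438 in refed HRD1Alb, and passed no test (mean of both states 0.67 ± 0.36, adjusted p = 0.22). Its partner in this role, Mybl2, was at 0.02 ± 0.60 in fasted and -0.53 ± 0.59 in refed liver and passed none. Aurka, the regulator with the highest level per length (2.0 CPM per kilobase), lay between 3.14 and 4.82 CPM in all libraries with no difference that passed.

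Of the 11 kinetochore, centromere and checkpoint genes, 8 rose on the mean of both states, where 11.3% of all genes did. Ndc80 and Nuf2, both among the 8, passed the count filter only through the HRD1Alb libraries. Bub1b, the checkpoint kinase BubR1, was at 0.549 and 0.462 CPM in fasted WT, 1.62 and 1.63 in fasted HRD1Alb, 0.519 and 0.420 in refed WT and 0.897 and 0.921 in refed HRD1Alb (1.32 ± 0.22, adjusted p = 0.010). Aurkb, the kinase of the chromosomal passenger complex, was at 0.125 and 0.268 CPM in fasted WT, 0.978 and 0.854 in fasted HRD1Alb, 0.247 and 0.158 in refed WT and 0.609 and 1.14 in refed HRD1Alb (2.14 ± 0.38, adjusted p = 0.012). Both kept the genotypes apart in every library. Birc5, another passenger protein, lay between 0.982 and 2.52 CPM with overlap in both states and passed no test. Bub1 was called in refed liver (2.35 ± 0.57, adjusted p = 0.042), from 0.0741 and 0.0525 CPM in WT, near the floor, to 0.322 and 0.351 CPM, but overlapped in fasted liver (0.274 and 0.268 against 0.489 and 0.272 CPM).

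Of the 9 spindle and cytokinesis genes, 6 rose on the mean of both states, where 11.3% of all genes did. Ect2, the exchange factor that activates RhoA at the cleavage furrow and the gene of this group with the highest level per length (0.534 CPM per kilobase), was at 2.04 and 1.85 CPM in fasted WT, 4.24 and 4.12 in fasted HRD1Alb, 0.914 and 1.05 in refed WT and 1.63 and 1.60 in refed HRD1Alb (0.91 ± 0.17, adjusted p = 0.014). Kif23, the motor subunit of centralspindlin, was at 0.374 and 0.316 CPM in fasted WT, 0.645 and 0.672 in fasted HRD1Alb, 0.296 and 0.236 in refed WT and 0.762 and 1.03 in refed HRD1Alb (1.33 ± 0.27, adjusted p = 0.017). Its partner Racgap1, already named for fasted liver, was at 0.469 and 0.473 CPM in refed WT and 1.25 and 1.32 in refed HRD1Alb. The centralspindlin genes thus lay apart between the genotypes in all libraries. The mitotic motor Kif11 and the spindle protein Nusap1 passed no test and overlapped in refed liver.

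Refeeding moved few members, and the counts of calls were near the shares of all genes and are not read as a result. In WT, 0 rose, where 1.2% of all genes tested did, and 1 fell, where 1.41% did. At an unadjusted p under 0.05, 4 were higher and 6 lower, and DESeq2 called 0 and 3, limma-trend 0 and 1. The call was Spc25 (chr2:69193895-69206194), a subunit of the NDC80 complex that binds spindle microtubules and the kinetochore gene with the highest level per length (4.5 CPM per kilobase). It went from 9.6 and 6.74 CPM in fasted WT to 3.43 and 3.33 CPM in refed WT, and from 10.2 and 11.4 to 4.64 and 5.57 CPM in HRD1Alb. It fell by 1.27 ± 0.24 in WT (adjusted p = 0.043) and by 1.08 ± 0.23 in HRD1Alb (adjusted p = 0.031). The WT call was lost when any one library outside the refed HRD1Alb pair was left out, and 4 members were called lower when either of that pair was.

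In HRD1Alb, 3 members rose on refeeding, where 5.43% of all genes did, and 3 fell, where 5.05% did. Both numbers are near the shares of all genes and are not read as a result about the members. Those that rose were the G1 to S genes Ccne1 (2.30 ± 0.28, adjusted p = 0.0075), Ccnd1 (1.67 ± 0.29, adjusted p = 0.018) and E2f1 (1.32 ± 0.27, adjusted p = 0.028). Those that fell were the mitosis genes Ect2 (-1.37 ± 0.23, adjusted p = 0.017), Spc25 and Anln, the anillin of the contractile ring, which went from 2.48 and 2.31 to 0.914 and 0.964 CPM (-1.35 ± 0.31, adjusted p = 0.037). Among the mitosis genes, 27 of 35 had a log2 fold change below 0, with a median of -0.49, whereas 14 of the 18 replication genes were above 0, with a median of 0.45, where all genes had a median of 0.02. The replication median rested on 1 library and was 0.10 without refed HRD1Alb replicate 2, whereas the mitosis median was -0.59. Both counts fell to 0 without either fasted HRD1Alb library, and without refed HRD1Alb replicate 1 they were 10 and 7, where 24.8% of all genes were higher. Without replicate 2 they were 4 and 8, where 10.7% of all genes were higher.

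Whether the effect of genotype differed between feeding states was tested by the interaction. No member was called, and no gene of the 14328 was (0%). At an unadjusted p under 0.05 there were 6 members and 1209 genes, DESeq2 called 0 members and 95 genes, and limma-trend 0 and 0. The smallest unadjusted p-values of members in this edgeR fit over all genes were those of Ccnd1 and Ccne1 (0.014 and 0.016), both with a larger difference after refeeding. A different response of these genes in fasted and refed liver was thus not shown at this number of samples.

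Further genes of the same pathways, outside the 59, were counted in the same way. Of 52 other mitosis genes tested, 5 rose and 0 fell in fasted liver, where 0.921% of all genes rose and 0.433% fell. In refed liver 4 rose, near the share of 7.09% of all genes, and 2 fell, where 4.84% of all genes did. On the mean of both states 21 rose, where 11.3% of all genes did, and 2 fell, where 7.78% did, with a median log2 fold change of 1.04. In fasted liver the calls with the smallest p were Hmmr, a spindle microtubule protein (0.150 and 0.268 CPM in WT, 1.96 and 1.33 in HRD1Alb, adjusted p = 0.038), Ckap2 (0.299 and 0.219 against 1.33 and 1.60 CPM, adjusted p = 0.039) and Gtse1 (0.798 and 0.681 against 2.93 and 2.69 CPM, adjusted p = 0.044). Zwint, a kinetochore protein, went the other way, with 40.4 and 40.3 CPM in fasted WT, 26.8 and 27.4 in fasted HRD1Alb, 38.4 and 35.7 in refed WT and 21.4 and 17.97 in refed HRD1Alb (-0.74 ± 0.11, adjusted p = 0.0070).

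Other replication genes had few calls. Of 26 genes of the replication fork, 0 rose and 1 fell on the mean of both states, with a median of -0.02 and 4 at an unadjusted p under 0.05. Of 14 origin and initiation genes 0 rose and 1 fell, with a median of 0.03. Of all genes, 11.3% rose and 7.78% fell, and the 1 lower call of each list is not read as a result beside that share. The fork gene that fell was Rfc1, the large subunit of the clamp loader, at 32.5 and 31.3 CPM in fasted WT, 23.6 and 24.3 in fasted HRD1Alb, 29.98 and 31.3 in refed WT and 24.5 and 21.9 in refed HRD1Alb. The initiation gene was Mcm10 (-0.60 ± 0.15, adjusted p = 0.031). On refeeding Pold2, a subunit of DNA polymerase delta, rose from 6.43 and 6.38 to 16.2 and 14.7 CPM in WT (adjusted p = 0.028) and from 5.48 and 4.98 to 18.8 and 23.8 CPM in HRD1Alb (adjusted p = 0.0040).

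Some inhibitors of the cycle rose as well. Of 9 inhibitors of cyclin-dependent kinases tested, 5 rose, where 11.3% of all genes did, and 0 fell on the mean of both states, where 7.78% did and where 0 of these genes were lower by edgeR at an unadjusted p under 0.05. Cdkn2c, the inhibitor p18 of the cyclin D kinases, was at 6.11 and 6.79 CPM in fasted WT, 13.3 and 13.6 in fasted HRD1Alb, 3.36 and 4.12 in refed WT and 9.89 and 10.8 in refed HRD1Alb (1.26 ± 0.14, adjusted p = 0.0030). Pkmyt1, a kinase that holds CDK1 inactive, was at 0.599 and 0.438 CPM in fasted WT, 1.96 and 1.76 in fasted HRD1Alb, 0.346 and 0.368 in refed WT and 1.03 and 0.964 in refed HRD1Alb (1.66 ± 0.23, adjusted p = 0.0060). Of 21 genes of G1 control and the RB and E2F families, 1 rose and 5 fell on the mean of both states, beside the same 11.3% and 7.78% of all genes. The gene that rose was Myc, which was called in refed liver at 8.64 and 5.93 CPM in WT and 32.1 and 17.7 CPM in HRD1Alb (1.77 ± 0.41, adjusted p = 0.038). The refed calls that fell were Tfdp2 (adjusted p = 0.024), Lin54 (adjusted p = 0.041) and Cdk2 (adjusted p = 0.048). Of 10 immediate-early genes, 4 rose on the mean of both states, where 11.3% of all genes did, among them Atf3 with 1.51 and 1.60 CPM in refed WT and 79.6 and 31.7 CPM in refed HRD1Alb.

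Markers of other liver cells moved with the genotype too. The 8 Kupffer cell markers summed to 94.3 to 106 CPM in fasted WT and 247 to 336 CPM in fasted HRD1Alb, and to 109 CPM in both refed WT libraries and 225 to 475 CPM in refed HRD1Alb. The higher refed HRD1Alb sum was that of replicate 2, the library with the length trend. All 8 markers were called higher on the mean of both states, where 11.3% of all genes were, and none was at 0 in any group. The 6 stellate cell markers summed to 167 to 326 CPM in fasted and 158 to 193 CPM in refed WT, and to 389 to 401 and 314 to 408 CPM in HRD1Alb. On the mean of both states 4 of 6 were called higher, beside the same 11.3% of all genes. The 7 T and NK cell markers summed to 2.41 to 2.97 CPM over all WT libraries and to 3.58 to 9.10 CPM in HRD1Alb. Of these, 3 of 7 were called higher, beside the same 11.3%. Cd4 was lower in direction (-0.68 ± 0.36, adjusted p = 0.22, edgeR). The 6 B and plasma cell markers summed to 3.86 to 5.48 CPM in WT and 5.57 to 9.25 in HRD1Alb. Here 0 were called, beside the same 11.3%, and 3 were at an unadjusted p under 0.05.

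The endothelial, erythroid and neutrophil lists overlapped in fasted liver and were higher in HRD1Alb in refed liver. The 5 endothelial markers summed to 83.7 to 92.8 CPM in fasted WT and 91.3 to 102 in fasted HRD1Alb, and to 86.6 to 99.9 and 105 to 107 CPM after refeeding, with 0 called and 0 at an unadjusted p under 0.05 on the mean of both states. Erythroid markers, of which Hba-a1 was listed at 0 in every group, summed to 151 to 157 CPM in fasted WT and 61.5 to 244 in fasted HRD1Alb, and to 215 to 222 and 280 to 345 CPM after refeeding. Among them Alas2, the heme synthesis enzyme of red cells, fell on the mean of both states (-1.06 ± 0.24, adjusted p = 0.025). Neutrophil and myeloid markers summed to 1.25 to 1.80 CPM in fasted WT and 1.40 to 1.68 in fasted HRD1Alb, and to 1.26 to 2.10 and 2.73 to 9.49 CPM after refeeding, with Mpo at 0 in WT. Among them S100a9, a calcium-binding protein of neutrophils, rose in refed liver (2.07 ± 0.54, adjusted p = 0.0496, edgeR). It was at 0.691 and 0.867 CPM in refed WT and 1.57 and 5.02 CPM in refed HRD1Alb. The higher value was that of replicate 2, the library with the length trend, and the transcript has 519 bases. S100a8 did not pass (adjusted p = 0.068, edgeR), and Elane was lower in direction (-0.61 ± 0.99). The 5 cholangiocyte markers summed to 42.3 to 68.3 CPM in fasted WT and 32.7 to 37.0 in fasted HRD1Alb, lower in HRD1Alb. After refeeding the sums were 32.1 to 36.0 and 29.1 to 52.9 CPM, with overlap. These markers passed no test on the mean of both states. The 6 hepatocyte markers, of which none was at 0, took 140441 to 153251 CPM in fasted and 109132 to 117464 CPM in refed WT. They took 93249 to 93619 CPM in fasted and 65507 to 104357 CPM in refed HRD1Alb, lower in both states. On the mean of both states 0 of 6 were called, where 7.78% of all genes were lower, and 3 were at an unadjusted p under 0.05. The part of these cell types in the mitosis result was not tested.

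**Figure D4:**
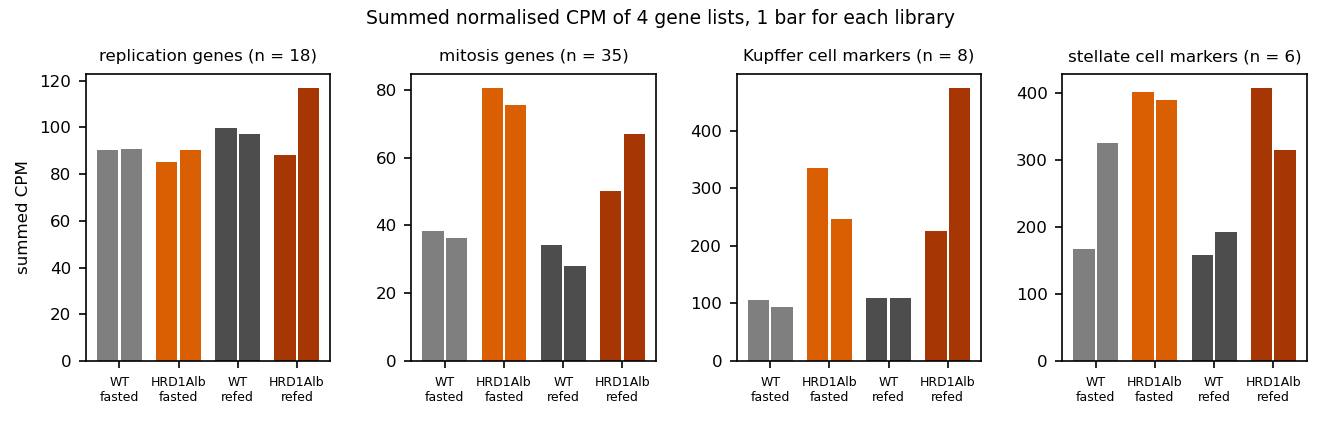
Summed CPM of the 18 replication genes, the 35 mitosis genes, 8 Kupffer cell markers and 6 stellate cell markers, with 1 bar for each library and each panel on its own axis from 0. The replication sum stays between 85.3 and 117 CPM in all libraries, whereas the mitosis, Kupffer and stellate sums are higher in each HRD1Alb library than in the WT libraries of the same feeding state.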

How the data were processed

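The authors deposited raw read counts per gene symbol for each liver RNA-seq library. The study's methods name ERANGE for counting, whereas the submitters' processing notes list cutadapt, STAR, HTSeq, DESeq2 and mm10 without roles, so the counter is uncertain, and strand use in counting is not given in the sources used here. Libraries were grouped by their GEO labels. Genes were filtered by filterByExpr (minimum count 10, minimum total 15), scaled by TMM (factors 0.837 to 1.22) and fitted by edgeR 4.0.16 in R 4.3.3 with a quasi-likelihood test and 1 coefficient for each group. Adjusted p-values are Benjamini-Hochberg values over the 14328 genes tested. The study's own test used limma on normalised values. Alternatives were DESeq2 1.42.0, limma-trend 3.58.1, RLE scaling, no filter, a replicate block, a correction for transcript length, fits of 4 samples, and leaving out each library. The correction together with the block was added after seeing the data. The fits were tested on simulated data. The members, gene lists and marker lists were chosen with earlier results of these data known. Values per library are given for the called members with the smallest p (at most 15 for each comparison and direction), for 16 preset genes and for the highest member per length of each role, and from other lists for at most 3 called genes for each comparison. Mcm4, Mcm6, Cdc6, Cdt1, Tk1, Mybl2, Birc5, Kif11, Nusap1 and Ccnd2 were also named with their values seen. So were Cyp2b13 and the marker genes Alas2, S100a9, S100a8, Elane, Cd4, Hba-a1 and Mpo. Gene coordinates are those of GENCODE M21 on GRCm38.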

Additional observations from a re-analysis of the deposited data

How the results depend on the processing

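Counts of members called depended on the fit more than fold changes did. Members called higher in fasted liver, 2 by edgeR, numbered 17 by DESeq2, 7 by limma-trend, 10 without the filter, 13 with the length correction and 22 in the fit of 4 samples, and those called lower, 0 by edgeR, were 1 by DESeq2 and 2 in the fit of 4. Of all genes, 0.921% were higher by edgeR and 3.36% with the length correction. Shares for DESeq2, limma-trend, no filter and the fit of 4 are not given here, so their counts are not read alone. In refed liver the fit of 4 samples called 0 higher in place of 12, and DESeq2 and the length correction each called 1 lower. For refeeding in WT, DESeq2 called 3 lower and the fit of 4 called 1 higher and 2 lower. For refeeding in HRD1Alb the fit of 4 called 0 in either direction. Leaving out each library in turn gave 0 to 22 higher and 0 to 3 lower in fasted liver, 0 to 28 and 0 to 3 in refed liver, 9 to 39 and 0 to 4 on the mean of both states, 0 to 2 and 0 to 4 for refeeding in WT, 0 to 10 and 0 to 8 for refeeding in HRD1Alb, and 0 to 2 and 0 to 1 for the interaction. Same-numbered samples did not deviate together in every pair of groups (r = 0.0161 to 0.179), so the numbers were not taken to pair the samples. With the replicate block, 0 were higher in fasted and 5 in refed liver, where 0.572% and 5.54% of all genes were. On the mean of both states 1 was lower, and 0 fell on refeeding in WT. With the block and the length correction together, 9 were higher in fasted liver, 1 was lower in refed liver and 1 rose on refeeding in WT. Of the single genes followed, 3 near 0 changed sign. Pcna in fasted liver was -0.0230 with the length correction, -0.0217 with the block added and between -0.0385 (without fasted HRD1Alb replicate 2) and 0.0751 with 1 library left out. Rrm2 in fasted liver lay between -0.278 and 0.0328 (without fasted WT replicate 1), and Foxm1 in refed liver between -0.18 (without refed WT replicate 2) and 0.99. None of these was called, and the cause was not tested. The 17 mitosis genes under a mean of 1 CPM rest on few reads, and whether depth shaped their folds was not tested.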
